A study of Mus musculus with 91 samples.

Results

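The libraries described here are the 4 Dnmt3a/3b-DKO and the 3 control libraries of the epiblast (Epi) of mouse embryos at E7.5, the stage of gastrulation. Which libraries belong to the 2 groups was read from their labels, with no measured value used, and they are 7 of the 91 small RNA libraries in the series. The comparison itself was picked with earlier results of these data known. The count table names 1504 mature miRNAs, of which 1034 were counted at least once in these 7 libraries and 652 had enough counts to be tested. The question the comparison addresses is which miRNAs of the Epi differ in level when both de novo DNA methyltransferases are disrupted.

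All embryos shared 1 background, labelled C57BL/6 male X F1 female. Per the study's methods the sires carried an Oct4-EGFP transgene and the dams were superovulated B6D2F1 females. The Dnmt3a/3b-DKO embryos came from zygotes injected with mRNA of a cytosine base editor and 2 guide RNAs that write premature stop codons into Dnmt3a and Dnmt3b, so every embryo was edited on its own and no mutant line stood behind the group. Embryos grew in ICR foster mothers, and at E7.5 the Epi was parted from the extraembryonic ectoderm (Exe) with a needle. What the control zygotes received, the sex of the embryos and the number of embryos pooled per library are not given in the sources used here. Since nothing says that the replicates came from separate litters, the p-values measure only the spread between these libraries. Dnmt3a and Dnmt3b mRNAs are not part of miRNA counts, so the knock-out itself could not be checked in them. The guides are shown because they define the mutant group, and were copied from the study's guide list:
Dnmt3a-sgRNA3: gttccaggggtcttccttaa
Dnmt3b-sgRNA2: gtatcaggtaaagcctgaga

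DNMT3A and DNMT3B place methyl groups on unmethylated CpG sites as the genome is remethylated after implantation, and DNMT1 copies the pattern at each replication. A mature miRNA is a short RNA that represses mRNAs pairing with its seed, bases 2 to 8 from its 5′ end, and miRNAs that share a seed share many predicted targets. Many miRNA genes lie in clusters. In the mouse Epi the miR-302/miR-367 and miR-290-295 clusters are abundant and are known from pluripotent cells, the large cluster of the imprinted Dlk1-Dio3 region is expressed from the maternal chromosome, and a cluster on the X chromosome between Slitrk2 and Fmr1 is known chiefly from testis and germ cells.

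The mature sequences of the miRNAs on which the results turn are given first, with the seed in capitals. Of the 50 miRNAs called in the main comparison, 45 have a mature sequence in RefSeq (GRCm38.p6), and these hold 37 distinct seeds. The first set holds members of the X-linked cluster, all called except miR-883b-3p, and shows how some of them share a seed. Other called members of the cluster are left out of it. The 3 names miR-465a-3p, miR-465b-3p and miR-465c-3p stand for 1 sequence. The 3 miR-465 5p arms share 1 seed and differ only after it, as do the miR-743 and the miR-883 3p arms.
miR-465a/b/c-3p: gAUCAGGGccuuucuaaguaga
miR-465a-5p: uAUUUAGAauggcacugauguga
miR-465b-5p: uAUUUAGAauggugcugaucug
miR-465c-5p: uAUUUAGAauggcgcugaucug
miR-743a-3p: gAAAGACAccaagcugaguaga
miR-743b-3p: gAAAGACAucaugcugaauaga
miR-883a-3p: uAACUGCAacagcucucaguau
miR-883b-3p: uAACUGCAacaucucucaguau
miR-470-5p: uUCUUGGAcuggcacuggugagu
miR-741-3p: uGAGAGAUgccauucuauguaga
miR-871-3p: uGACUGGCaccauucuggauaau
miR-880-3p: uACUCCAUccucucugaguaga
miR-881-5p: cAGAGAGAuaacagucacaucu

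The second set holds called miRNAs of imprinted regions, pairs from different loci that share a seed, and miR-142a-5p from the blood and endothelial list. Seed AUUGCAC is carried by miR-92a-3p and miR-92b-3p, seed ACCCGUA by miR-99a-5p and miR-99b-5p, and seed UGACCUA by miR-192-5p and miR-215-5p.
miR-540-3p: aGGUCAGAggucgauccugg
miR-541-5p: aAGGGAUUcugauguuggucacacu
miR-296-5p: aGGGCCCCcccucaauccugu
miR-298-5p: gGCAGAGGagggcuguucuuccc
miR-92a-3p: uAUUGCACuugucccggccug
miR-92b-3p: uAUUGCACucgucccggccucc
miR-99a-5p: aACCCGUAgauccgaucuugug
miR-99b-5p: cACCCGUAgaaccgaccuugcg
miR-192-5p: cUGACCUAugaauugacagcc
miR-215-5p: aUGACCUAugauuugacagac
miR-142a-5p: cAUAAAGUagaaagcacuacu

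The control libraries held 2325698, 1879270 and 1623256 miRNA counts and the Dnmt3a/3b-DKO libraries 882430, 1222590, 1486438 and 1478171. Between 636 and 684 miRNAs were detected in the controls and between 683 and 778 in the mutants. Levels are given as CPM, a miRNA's counts divided by all miRNA counts of its library and scaled in the usual way, in the order of the replicates. A level of 3 counts corresponds to between 1.29 and 1.85 CPM in the controls and between 2.02 and 3.40 CPM in the mutants. The Pearson correlation of log2 CPM across miRNAs ran from 0.914 to 0.949 within the groups and from 0.859 to 0.903 between them. The 10 most abundant miRNAs made up 53.8% to 55.6% of control counts and 47.97% to 49.8% of Dnmt3a/3b-DKO counts. Some names carry identical counts in every library: of 37 such pairs among the tested names, 18 could be checked by sequence and 15 of those were reverse complements, so that a miRNA and its antisense partner cannot be told apart there.

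In the Dnmt3a/3b-DKO Epi the miRNAs of the X-linked germline cluster made up 20 of the 39 that rose, with rises between 10.3-fold and 16.9-fold for miR-465a-3p, miR-470-5p, miR-741-3p and miR-880-3p. Only 11 miRNAs fell, among them miR-540-3p and miR-541-5p of Dlk1-Dio3, miR-296-5p and miR-298-5p beside Gnas, and the abundant miR-92a-3p and miR-92b-3p. Rose and fell are used here for an adjusted p under 0.05 in edgeR's quasi-likelihood test with Benjamini-Hochberg adjustment over the 652 tested miRNAs, so that the 39 are 5.98% and the 11 are 1.69% of those tested. Under the thresholds the study used, a log2 fold change over 0.5 either way with an unadjusted p under 0.05, 84 miRNAs were higher (12.9%) and 32 lower (4.91%). The groups of libraries did not overlap for 178 miRNAs (27.3%), which include all 50 calls. The median log2 fold change over the tested miRNAs was 0.02. Leaving out control replicate 3 took 16 of the 50 calls away and leaving out any single library took away 17 in all, while the other 33 passed without each of the 7 libraries in turn.

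**Figure D1:**
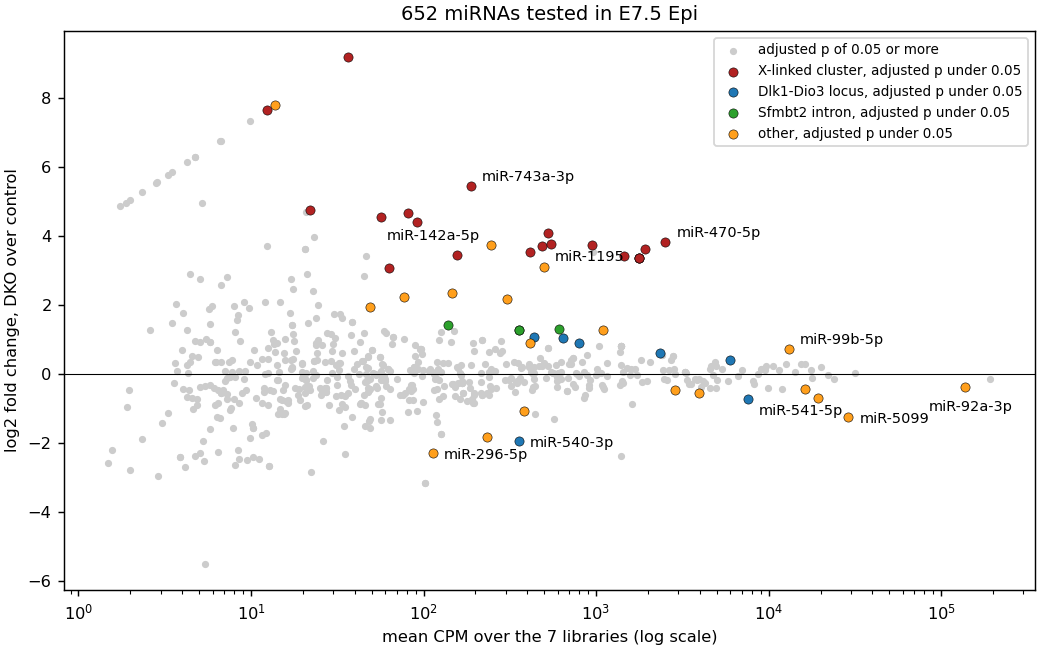
Log2 fold change of each of the 652 tested miRNAs in E7.5 Epi, Dnmt3a/3b-DKO over control, against its mean level in the 7 libraries (CPM, log axis). Each point is 1 miRNA, and the members of the X-linked cluster stand apart at the top over a wide range of levels. Points of miRNAs with a group at 3 counts or fewer are fitted values that depend on the prior count.

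The X-linked cluster holds 19 miRNA genes on the minus strand of chromosome X, between 66776757 and 66839125 in GRCm38, a stretch of 62.4 kb that starts 115.4 kb from Slitrk2 and lies 1839.4 kb from Fmr1. The table names 38 mature miRNAs from this list, which also counts Mir201 and Mir547, 1149.0 kb further on. Of the 38, 27 were tested, 3 were counted but too low to test, and 8 were at 0 in all 7 libraries, including both arms of miR-201 and miR-547. Of the 27 tested, 20 rose and none fell, all 27 estimates were above 0, and the median log2 fold change was 3.73 beside 0.02 over all tested miRNAs. The whole list took 0.152%, 0.319% and 0.116% of counts in the controls and 2.18%, 2.18%, 3.05% and 2.51% in the Dnmt3a/3b-DKO libraries. Every mutant library was thus far above the highest control, control replicate 2.

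The most abundant member in the mutant Epi was miR-470-5p, at 188, 517 and 146 CPM in the controls and 4471, 3390.3, 4826 and 4136 CPM in the Dnmt3a/3b-DKO libraries. Its log2 fold change was 3.82 (SE 0.336, adjusted p = 4.26e-07), a 14.1-fold rise. Control replicate 2 was the highest control for it and for most of its neighbours, and stayed far below every mutant library.

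Levels of miR-465a-3p, shared with its b and c copies, were 217, 416 and 166 CPM in the controls and 2314, 2801, 3545 and 2949 CPM in the mutants (log2 fold change 3.36, SE 0.264, adjusted p = 1.37e-07). The 5p arms of the same family, with another seed, rose as well. The 5p arm of miR-465c was at 65.8, 74.5 and 30.8 CPM against 705, 699, 994 and 812 CPM (3.73, SE 0.349, adjusted p = 8.96e-07). The 5p arm of miR-465b was much rarer, at 4.30, 10.6 and 0 CPM against 154, 138, 119.7 and 139 CPM (log2 fold change 4.68), and its adjusted p reached 0.0603 without control replicate 1. Both arms of the miR-465 hairpins thus rose, and the 3p arm was the more abundant in all 7 libraries.

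The remaining abundant members followed the same pattern. miR-741-3p was at 199.5, 398 and 139 CPM in the controls and at 2919, 2619.8, 4036 and 3209 CPM in the mutants, a 12.3-fold rise (log2 fold change 3.62, SE 0.313, adjusted p = 4.21e-07). Values for miR-871-3p were 190.5, 359 and 78.9 CPM against 2056, 2082, 2919.7 and 2428 CPM (3.42, SE 0.360, adjusted p = 2.77e-06). Values for miR-880-3p were 20.6, 93.1 and 34.5 CPM against 832, 619, 1193 and 881 CPM (4.08, SE 0.426, adjusted p = 2.77e-06). For none of these 3 did a mutant library come near the highest control.

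The 2 miR-743 3p arms, which share seed AAAGACA, rose from different control levels. miR-743b-3p was at 64.5, 149.5 and 115 CPM in the controls and at 1267, 1249.8, 2144 and 1603 CPM in the mutants (log2 fold change 3.75, SE 0.407, adjusted p = 3.90e-06). miR-743a-3p was at 2.58, 18.1 and 0 CPM against 243, 356, 362 and 330.1 CPM, the steepest fitted rise among members with counts in the controls (5.45, SE 0.749, adjusted p = 7.28e-05). Neither pair of groups overlapped.

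Some members had no count at all in the 3 controls, and for them only a lower bound of the fold can be given, set against 3 counts in each control library. miR-881-5p was at 35.1, 54.8, 126 and 39.2 CPM in the mutants, at least 37.9-fold higher (adjusted p = 4.21e-04). miR-883a-3p was at 32.9, 16.4, 26.9 and 10.8 CPM, at least 13.0-fold higher (adjusted p = 0.0216), and its call was lost without any 1 of the controls (highest adjusted p 0.0727). Its seed partner miR-883b-3p, also uncounted in the controls, was at 11.3, 11.5, 21.5 and 25.0 CPM (adjusted p = 0.0531) and was not called. At these levels a few counts decide the call.

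Besides miR-883b-3p, 6 tested members were not called: miR-743a-5p (adjusted p = 0.0759), miR-881-3p (0.116), miR-463-5p (0.172), miR-741-5p (0.224), miR-471-3p (0.478) and miR-470-3p (0.694). For 5 of these 6 the other arm of the same hairpin rose. miR-470-3p, for example, was at 6.02, 0 and 0 CPM in the controls and 6.80, 11.5, 11.4 and 4.06 CPM in the mutants, far below the 5p arm of its hairpin in every library. The called members with the least support were miR-471-5p and miR-883a-5p, each lost without 5 of the 7 libraries in turn, at adjusted p values up to 0.172 and 0.138.

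**Figure D2:**
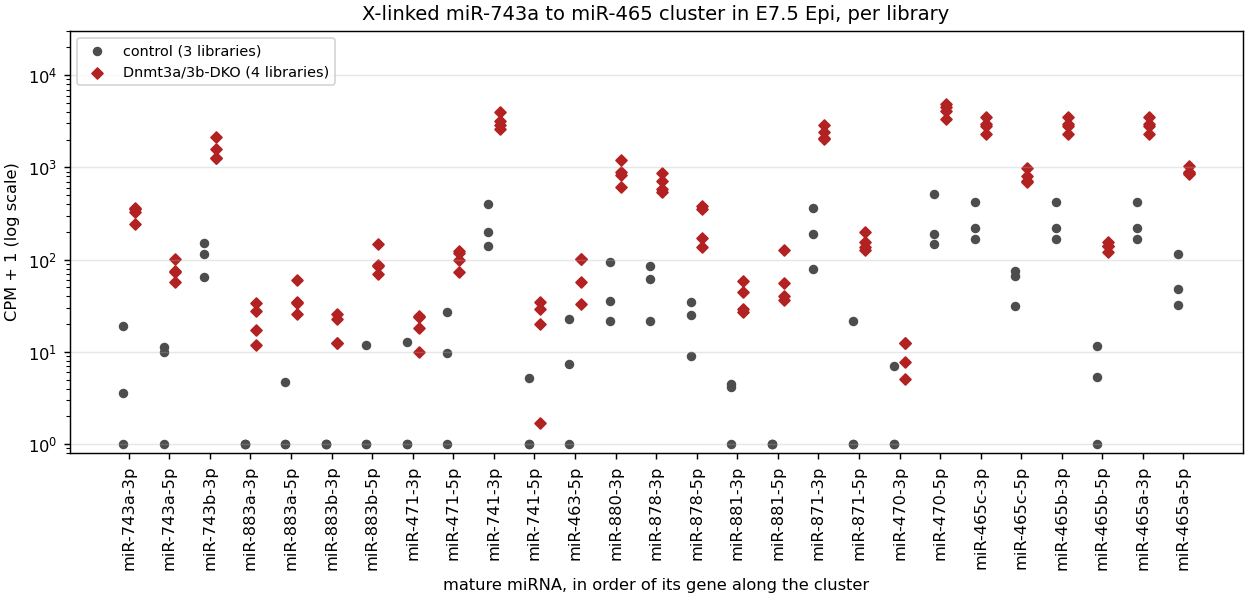
Levels of members of the X-linked cluster in each of the 7 E7.5 Epi libraries (log axis), controls and Dnmt3a/3b-DKO in separate colours. The axis shows CPM + 1, and the members stand in the order of their genes along the cluster. For every called member drawn, all 4 mutant libraries lie above all 3 controls.

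Elsewhere on the X chromosome the change was far smaller. Of 77 names from X-linked miRNA genes outside the cluster, 37 were tested, and only miR-672-5p passed, with no member falling. The list took 1.64% to 1.74% of counts in the controls and 1.63% to 1.79% in the mutants, overlapping ranges, with a median log2 fold change of −0.13. miR-672-5p, from chromosome X between 104116175 and 104116274, was at 38.7, 24.5 and 6.16 CPM against 80.5, 179.9, 139.9 and 69.7 CPM (2.25, SE 0.643, adjusted p = 0.0392). Its call was lost without any of 4 libraries (adjusted p up to 0.172). The miR-106a~miR-363 cluster, also on X, had 7 tested members and none was called.

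The imprinted Dlk1-Dio3 region on chromosome 12, between Dlk1 (109452485 to 109463336) and Dio3 (110279230 to 110281097), gave few calls. Of 113 names, 107 were counted and 99 tested. Of these, 5 rose and 2 fell, counts near what the 5.98% and 1.69% over all tested miRNAs give for a list of this size. Of the estimates, 58 of the 99 were above 0, and the median log2 fold change was 0.07, close to that of all miRNAs. The summed share of the region was nevertheless higher in each mutant library than in each control, at 13.0%, 13.8% and 13.2% in the controls and 15.5%, 15.04%, 14.7% and 16.2% in the mutants. The most abundant members, miR-127-3p and miR-409-3p, had estimates near 0 after scaling.

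The clearest fall in the region was that of miR-540-3p, at 528, 546 and 752 CPM in the controls and 213, 135, 153 and 167 CPM in the Dnmt3a/3b-DKO libraries (log2 fold change −1.95, SE 0.232, adjusted p = 1.23e-05). The mutant level was 0.258 times that of the controls. miR-541-5p was at 8788, 9453 and 10285 CPM against 6604, 5944, 5876 and 6201 CPM (−0.71, SE 0.108, adjusted p = 2.07e-04). For both, every mutant library lay below every control.

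Rises in the region were modest. miR-485-3p was at 1588, 1811 and 1759 CPM in the controls and 3104, 2693, 2478 and 2929 CPM in the mutants (log2 fold change 0.62, SE 0.139, adjusted p = 0.00827). miR-543-3p was at 383, 369 and 405 CPM against 973, 748, 702 and 938 CPM (1.04, SE 0.230, adjusted p = 0.00813). Both passed without each library in turn. miR-134-5p (0.89, adjusted p = 0.0167), miR-382-5p (1.09, adjusted p = 0.0196) and miR-434-5p (0.41, adjusted p = 0.0416) did not pass without control replicate 3, at adjusted p values of 0.133, 0.138 and 0.176, and miR-434-5p was lost without any 1 library.

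Other members that the study names were not called. miR-127-3p, the most abundant of the region, stood at 28722, 31344 and 30744 CPM in the controls and 34015, 32191, 32148 and 33799.9 CPM in the mutants (0.04, adjusted p = 0.945). miR-409-3p was at 17397, 18733 and 17163 CPM against 21569, 21944, 20569 and 22713 CPM (0.20, adjusted p = 0.187). The 5p arm of miR-409 (0.34, adjusted p = 0.0759) and both arms of miR-369 (5p 0.04, adjusted p = 0.955, and 3p 0.59, adjusted p = 0.338) did not pass either. The plain CPM of miR-409-3p did not overlap between the groups, but the fold is smaller after the scaling factors, which were 0.897 to 0.937 in the controls and 0.941 to 0.987 in the mutants.

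**Figure D3:**
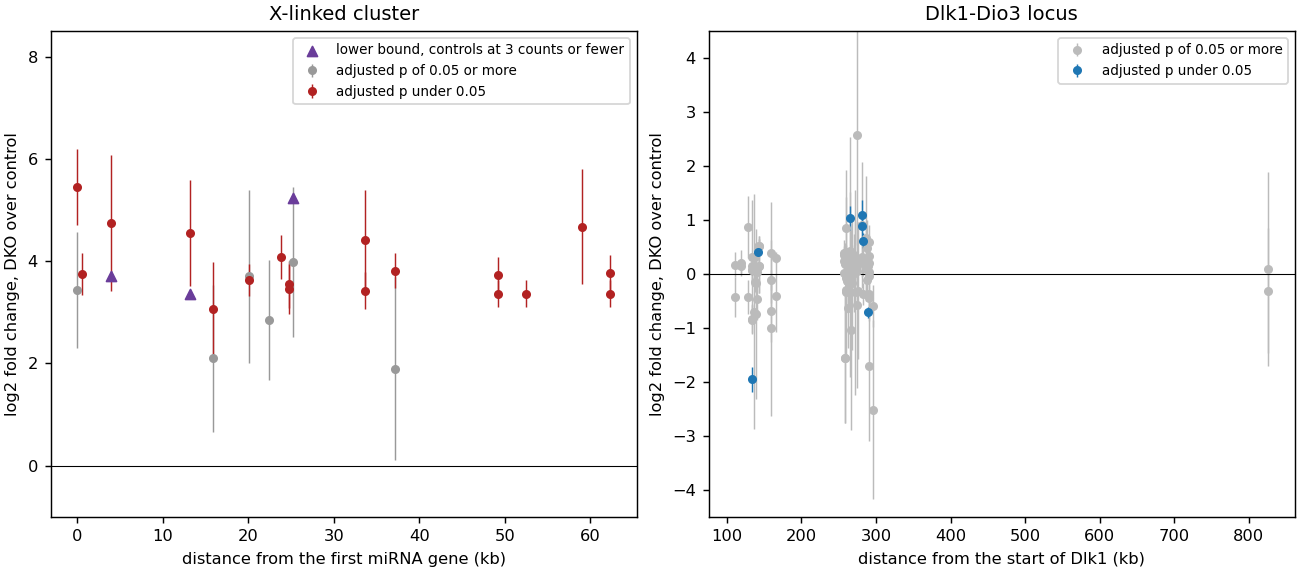
Log2 fold changes with SE bars of tested miRNAs by position along the X-linked cluster and along the Dlk1-Dio3 region, as distance in kb from the first miRNA gene of the cluster and from the start of Dlk1. Purple triangles are lower bounds for members with 3 counts or fewer in each control, and SE bars in the Dlk1-Dio3 panel are clipped at the axis limits. The X-linked members are high along the whole cluster, whereas the Dlk1-Dio3 members scatter around 0 with miR-540-3p the lowest called.

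At the imprinted loci Gnas and Mest the only calls were 2 falls beside Gnas. This list had 6 tested members, of which 2 fell, beside 1.69% over all tested miRNAs. It took 2.96% to 3.43% of counts in the controls and 2.39% to 2.91% in the mutants. miR-296-5p, from chromosome 2 between 174267047 and 174267125 beside Gnas, was at 168, 181 and 265 CPM in the controls and 22.7, 23.7, 55.2 and 74.4 CPM in the mutants (log2 fold change −2.31, SE 0.444, adjusted p = 0.00262). Its more abundant neighbour miR-298-5p was at 18907, 18073 and 18500.5 CPM against 14374, 14063, 15025 and 14666 CPM (−0.44, SE 0.0891, adjusted p = 0.00450). The other arm of miR-296, the 3p arm, did not pass, at 1125, 1127 and 1513 CPM against 1132, 885, 871 and 1085 CPM (−0.43, adjusted p = 0.242).

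At Igf2-H19 neither arm of miR-483, encoded in an Igf2 intron, passed. miR-483-3p was at 861, 879.6 and 808 CPM in the controls and 176, 397, 434 and 449.9 CPM in the mutants (−1.32, adjusted p = 0.187), groups that did not overlap. The 5p arm was at 555, 713 and 718 CPM against 519, 431, 621 and 591 CPM (−0.38, adjusted p = 0.877), groups that did.

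Among the abundant cell cycle and pluripotency clusters, the calls were few and small. miR-92a-3p of the miR-17~miR-92 cluster, known for promoting proliferation, was the second most abundant miRNA, at 149714, 145108 and 165982 CPM in the controls and 131401, 122733, 121746 and 123214 CPM in the mutants (log2 fold change −0.39, SE 0.0895, adjusted p = 0.00934). Its seed partner from another locus, miR-92b-3p, was at 21046, 24792 and 26412 CPM against 17318, 13365, 17076 and 15045 CPM (−0.70, SE 0.168, adjusted p = 0.0121). Without control replicate 3, the highest control for both, the adjusted p values were 0.119 and 0.0876. The other 4 tested miRNAs with seed AUUGCAC did not pass, and the 6 estimates ran from −0.70 to 0.37. No other tested member of miR-17~miR-92 was called among 12.

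The miR-302/miR-367 cluster, the main pluripotency cluster of the Epi, had 10 tested members and no call. It took 22.2% to 23.2% of control counts and 21.7% to 22.5% of mutant counts. Its leading member miR-302b-3p, the most abundant miRNA, stood at 198227, 201821 and 190875 CPM in the controls and 184232, 191871, 192520.0 and 192855 CPM in the mutants (−0.14, adjusted p = 0.716). The ranges overlapped.

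The miR-290-295 cluster, known from embryonic stem cells, had 18 tested members and no call at an adjusted p under 0.05. It took 4.89% to 4.99% of control counts and 5.61% to 6.86% of mutant counts, ranges that did not overlap, and 4 members passed the study's thresholds upward. Among its members miR-291b-5p was at 131, 169.7 and 87.5 CPM against 1571, 179.9, 3248 and 1362 CPM (3.53, adjusted p = 0.0668). Mutant replicate 2 lay at the control level for it. miR-295-3p was at 13954, 13956 and 13703 CPM against 14304, 20279, 20296 and 17612 CPM (0.30, adjusted p = 0.249).

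Smaller families gave a few calls in each direction, beside the 5.98% that rose and the 1.69% that fell over all tested miRNAs. The miR-130/miR-301 family had 8 tested members and 2 that fell, which differ in seed. Of the 3 tested miRNAs matched to the 3p seed AGUGCAA, 1 fell, and their estimates ran from −1.06 to 0.02. miR-130a-3p was at 557, 584 and 463 CPM in the controls and 232, 249, 216 and 392 CPM in the mutants (−1.06, SE 0.235, adjusted p = 0.00813). miR-130b-5p, at 3219, 3382 and 3274 CPM against 2365, 2383, 2739 and 2698 CPM (−0.46, adjusted p = 0.0327), lost its call without any 1 library (adjusted p up to 0.150).

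The miR-99/miR-100 and miR-125 families, often encoded beside let-7 genes, had 7 tested members and 2 that rose. miR-99b-5p was at 8509.7, 9187 and 9969 CPM in the controls and 17182, 19558, 15152 and 12845 CPM in the mutants (log2 fold change 0.73, SE 0.140, adjusted p = 0.00262). miR-99a-5p, far rarer, was at 38.3, 46.8 and 40.0 CPM against 235, 156, 274 and 235 CPM (2.34, SE 0.529, adjusted p = 0.00827). No library of one group reached into the other, while miR-125a-5p from the same locus as miR-99b did not pass (0.23, adjusted p = 0.80). miR-100-5p, which also carries seed ACCCGUA, was not called either, with an estimate of −0.49.

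In the miR-181 family, 2 of 7 tested members rose. miR-181d-5p was at 201, 344 and 254 CPM against 518, 603, 494 and 495 CPM (0.90, SE 0.219, adjusted p = 0.0129), lost without control replicate 1 or 3 (adjusted p up to 0.0993). miR-181c-3p, at 22.8, 17.0 and 12.9 CPM against 52.1, 83.4, 84.8 and 71.0 CPM (1.95, adjusted p = 0.0323), was lost without any of 6 libraries (up to 0.172). The let-7 family, which marks differentiated cells, had 9 tested members and no call. let-7c-5p, its nearest, was at 90.3, 59.1 and 88.7 CPM against 184, 202, 179 and 248 CPM (1.26, adjusted p = 0.0759), and let-7b-5p was at 11.6, 1.06 and 48.7 CPM against 14.7, 3.27, 10.8 and 10.1 CPM (−1.17, adjusted p = 0.755).

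Called miRNAs on none of the lists include some of the steepest changes. miR-1195 was at 52.0, 75.0 and 135 CPM in the controls and 884, 1020.0, 729.9 and 595 CPM in the mutants (log2 fold change 3.12, SE 0.323, adjusted p = 2.77e-06), an 8.70-fold rise. miR-5126 was at 66.2, 69.2 and 152 CPM against 596, 543, 268 and 443 CPM (2.19, SE 0.472, adjusted p = 0.00696). Neither pair of groups overlapped, and both passed without each library in turn.

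In the other direction, miR-5099, among the 10 most abundant names, was at 40475, 39325 and 47999 CPM in the controls and 24562, 17689, 15803 and 17355 CPM in the mutants (−1.26, SE 0.242, adjusted p = 0.00262). miR-1306-5p was at 365, 385 and 423 CPM against 66.9, 115, 172 and 118 CPM (−1.82, SE 0.436, adjusted p = 0.0121, and 0.0521 without control replicate 3). miR-149-5p was at 4311, 4442 and 5356 CPM against 3284, 3085, 3852 and 3425 CPM (−0.55, SE 0.151, adjusted p = 0.0311), lost without any of 6 libraries (up to 0.223). In all 3, each mutant library was below each control.

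miRNAs that mark other cells were measured as a check of the dissection. The Sfmbt2 intronic cluster, abundant in extraembryonic tissue, took 12.7% to 15.9% of counts in E7.5 Exe controls, and in the Epi it took 0.757%, 0.704% and 0.620% in the controls and 0.757%, 1.75%, 1.60% and 1.35% in the mutants. Mutant replicate 1 matched the highest control, whereas the other 3 were higher. Of 68 names, 38 were tested and 4 rose, with a median log2 fold change of 0.87. By the study's thresholds 19 were higher (50.0%, beside 12.9% over all tested miRNAs) and 0 lower, and 31 estimates were above 0. In bulk tissue, fewer cells of a type and less RNA per cell cannot be told apart.

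The 4 that rose are members of the miR-669 and miR-466 families. miR-669c-5p was at 389, 344 and 214 CPM in the controls and 645, 931, 928 and 819 CPM in the mutants (1.31, SE 0.274, adjusted p = 0.00544). miR-669a-5p, whose counts are those of miR-669p-5p too, was at 212, 177 and 172 CPM against 304, 577, 590.0 and 475 CPM (1.29, SE 0.287, adjusted p = 0.00813). miR-466n-3p (1.43, adjusted p = 0.0383) was lost without any of 5 libraries (up to 0.194). The part of Exe cells in these rises was not tested. Counts of the X-linked cluster took 0.752% to 1.86% in Exe controls and 3.15% to 4.28% in Exe mutants, the latter above every mutant Epi library, and mutant Epi replicate 1 held 2.18% with a Sfmbt2 share at the control level. The part of Exe cells in the X-linked rise was not tested either.

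Blood and endothelial miRNAs took 0.0916% to 0.157% of control counts and 0.119% to 0.280% of mutant counts. Beside the 5.98% that rose over all tested miRNAs, 1 of the 14 tested here rose. This was miR-142a-5p, from a gene known for its activity in blood cells, at 58.0, 23.9 and 4.31 CPM against 474, 526, 289 and 359 CPM (3.73, SE 0.581, adjusted p = 2.79e-04), a 13.3-fold rise. The other arm, miR-142a-3p, was at 0 in the controls and at 10.2, 0, 10.8 and 12.2 CPM in the mutants (adjusted p = 0.171). The erythroid miR-451a was at 0, 0 and 3.70 CPM against 21.5, 112, 8.75 and 0 CPM (adjusted p = 0.224) and miR-486a-5p at 63.6, 80.4 and 56.1 CPM against 41.9, 359, 36.3 and 33.8 CPM (0.73, adjusted p = 0.742). Mutant replicate 2 was the highest library for all 3 of miR-142a-5p, miR-451a and miR-486a-5p. The part of blood cells in the rise of miR-142a-5p was not tested.

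Endoderm miRNAs took 0.346% to 0.418% of control counts and 0.461% to 0.575% of mutant counts. Of 5 tested, 2 rose, both with seed UGACCUA, beside 5.98% over all tested miRNAs. miR-192-5p was at 697, 680.1 and 359.8 CPM in the controls and 1003, 1835, 1631 and 1502 CPM in the mutants (1.28, SE 0.311, adjusted p = 0.0129, and 0.0927 without control replicate 3). miR-215-5p was not counted in the controls and was at 23.8, 10.6, 29.6 and 31.8 CPM in the mutants, at least 14.3-fold higher (adjusted p = 0.00928). Other endoderm members were not called: miR-194-5p was at 69.2, 188 and 45.0 CPM against 119, 148, 144 and 126 CPM (0.34, adjusted p = 0.773), and the liver miRNA miR-122-5p at 17.6, 45.2 and 10.5 CPM against 10.2, 4.91, 0.673 and 0 CPM (−2.68, adjusted p = 0.461). The part of endoderm cells in these rises was not tested.

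Lists of the later body plan gave no call. Of the miRNAs inside the Hox clusters, miR-10a-5p was at 3265, 2676 and 1707 CPM in the controls and 240.2, 67.9, 418 and 1377 CPM in the mutants (−2.37, adjusted p = 0.235). The groups did not overlap, but the mutants varied widely. miR-10b-5p was at 1645, 924 and 600.0 CPM against 294, 289, 740.0 and 1445 CPM (−0.71, adjusted p = 0.782), and mutant replicate 4 was the highest mutant for both. The 10 tested neural miRNAs took 0.0665% to 0.0748% of control counts and 0.0342% to 0.0645% of mutant counts, and 4 were lower by the study's thresholds. Among them miR-219b-5p, whose counts are those of miR-219a-2-3p too, was at 227, 217 and 179.9 CPM against 45.3, 31.1, 72.0 and 117 CPM (−1.73, adjusted p = 0.235). Mesenchymal, muscle and heart, miR-183, miR-200, miR-34, miR-29, miR-15, miR-30, miR-23 and miR-322 lists also gave none.

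**Figure D4:**
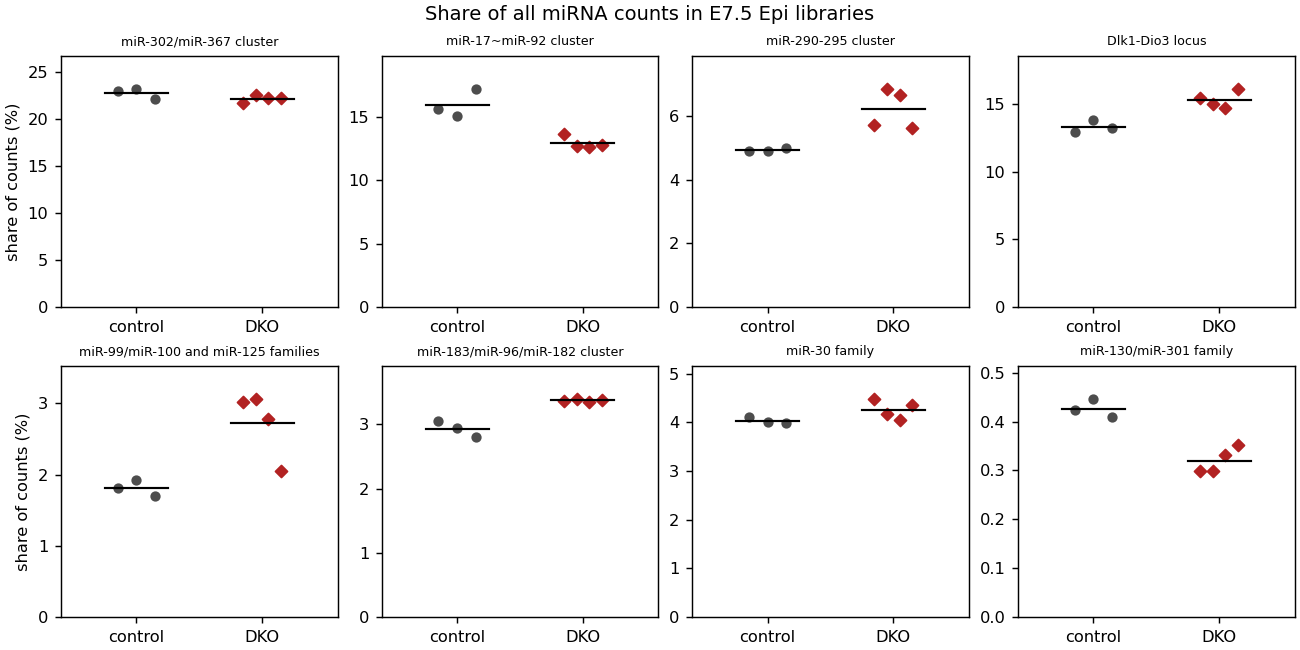
Share of all miRNA counts (percent, axes from 0) taken by 8 abundant clusters and families in the 7 E7.5 Epi libraries, 1 point per library with lines at the group means. The miR-302/miR-367 share lies near 22% in both groups, while the Dlk1-Dio3 and miR-290-295 shares are higher and the miR-17 to miR-92 share lower in every mutant library than in every control.

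The second comparison asked where the Dnmt3a/3b-DKO Epi differed from the Dnmt1-KO Epi of the same stage, 4 libraries of embryos edited in the gene of the maintenance enzyme. It uses the same 4 Dnmt3a/3b-DKO libraries. Of 652 tested miRNAs, 41 were higher in Dnmt3a/3b-DKO (6.29%) and 23 lower (3.53%) at an adjusted p under 0.05, and by the study's thresholds 75 were higher (11.5%) and 33 lower (5.06%). The median log2 difference over all tested was 0.21, and this split depends on the scaling. With edgeR's RLE scaling 24 were higher and 36 lower, and with the Dlk1-Dio3 miRNAs left out of the scaling 13 and 47. Differences are given beside that median.

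Dlk1-Dio3 members were lower in Dnmt3a/3b-DKO than in Dnmt1-KO for 18 of 99 tested and higher for none, with a median of −0.43. miR-540-3p, at a mean of 167 CPM in Dnmt3a/3b-DKO, was at 932 CPM in Dnmt1-KO and 609 CPM in the controls, and the log2 difference between the mutants was −2.38 (SE 0.224, adjusted p = 3.32e-06). miR-541-5p stood at 6156 CPM against 13851 CPM in Dnmt1-KO, with 9509 CPM in the controls. Both miRNAs were thus below the control level in one mutant and above it in the other, side by side with the same controls.

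At Gnas and Igf2-H19 the mutants parted as well. miR-296-5p was at 44.0 CPM in Dnmt3a/3b-DKO, 230 CPM in Dnmt1-KO and 205 CPM in the controls (difference between mutants −2.29, SE 0.426, adjusted p = 0.00231). miR-483-3p was at 364 CPM in Dnmt3a/3b-DKO and between 0 and 25.0 CPM in the 4 Dnmt1-KO libraries (4.97, SE 0.638, adjusted p = 2.47e-04). miR-483-5p was at 541 CPM against 0 to 109 CPM (3.97, SE 0.775, adjusted p = 0.00412). For miR-483 the Dnmt3a/3b-DKO Epi lay much nearer to the controls, at 849 and 662 CPM, than the Dnmt1-KO Epi did.

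The X-linked cluster was high in both mutants. Its share was 1.37% to 1.61% in Dnmt1-KO and 1.92% to 2.69% in Dnmt-null Epi, embryos edited in all 3 genes, beside the 2.18% to 3.05% of Dnmt3a/3b-DKO. Of 27 tested members, 6 were higher in Dnmt3a/3b-DKO than in Dnmt1-KO and none lower, with a median difference of 0.78 beside 0.21 over all miRNAs. The calls for miR-465a-3p and miR-741-3p were lost when the Dlk1-Dio3 miRNAs were left out of the scaling. miR-743b-3p, with a difference of 1.64, kept its call under every setting tried.

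**Figure D5:**
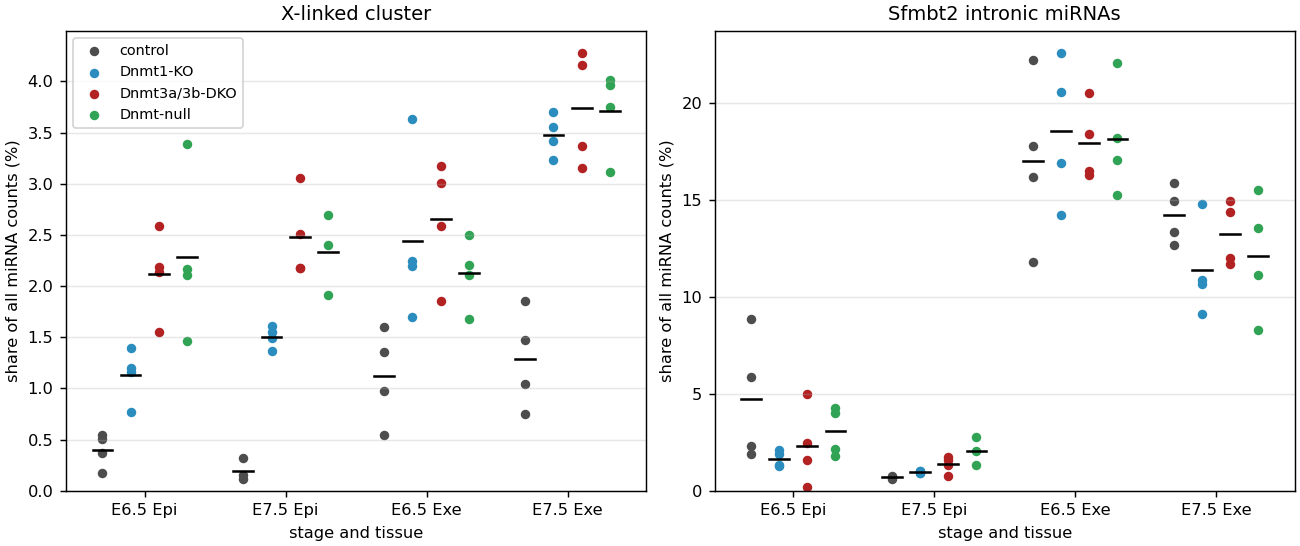
Share of miRNA counts (percent) taken by the X-linked cluster and by the Sfmbt2 cluster in each group of Epi and Exe libraries, with bars at the means of 3 or 4 libraries and 1 point per library. Epi controls stay at or below 0.543% for the X-linked cluster at both stages, and all mutant groups of the Epi lie above them.

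The third comparison asked whether the Dnmt3a/3b-DKO effect at E7.5 differed from that at E6.5, when gastrulation sets in, by an interaction of mutant and stage over 15 Epi libraries. Of 537 tested miRNAs the change was more positive at E7.5 for 21 (3.91%) and more negative for 17 (3.17%). By the study's thresholds these numbers were 74 (13.8%) and 41 (7.64%). The median over all tested was 0.36, so that estimates are shifted upward as a whole. The E6.5 libraries were shallower, with 154977 to 458837 miRNA counts against 882430 to 2325698 at E7.5. Control replicate 3 of E7.5 matters here too: without it 1 miRNA was called higher.

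In 26 tested members of the X-linked cluster 7 had a greater change at E7.5 and none a smaller one, with a median of 1.91. The share of the cluster at E6.5 was 0.169% to 0.543% in controls and 1.55% to 2.59% in Dnmt3a/3b-DKO, so it was high in the mutants at both stages, and the control ranges of the stages overlapped. In E6.5 Epi controls 1 to 4 it was 0.543%, 0.505%, 0.372% and 0.169%. The Sfmbt2 cluster took 5.87%, 8.84%, 2.30% and 1.88% of counts in these controls. It took 2.48%, 4.98%, 1.56% and 0.202% in the E6.5 mutants, and 0.620% to 0.757% in E7.5 Epi controls. The part of Exe cells in the stage difference was not tested. miR-743b-3p had an interaction of 2.05 (SE 0.483, adjusted p = 0.0191, lost without E7.5 control replicate 1 or 3, up to 0.0635). The miR-465 3p arm, at 348 and 2616 CPM at E6.5 and 266 and 2902 CPM at E7.5 in controls and mutants, did not pass (0.58, adjusted p = 0.502).

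miR-5099 changed in opposite directions at the 2 stages. Its mean was 20551 CPM in E6.5 controls (13335 to 25412) and 57233 CPM in E6.5 Dnmt3a/3b-DKO (51971 to 63274), against 42599 CPM and 18852 CPM at E7.5, an interaction of −2.62 (SE 0.243, adjusted p = 3.27e-06). No library of one group reached into the other at either stage. miR-540-3p, 212 and 246 CPM in controls and mutants at E6.5, also differed between the stages (−2.04, SE 0.510, adjusted p = 0.0235), as did miR-92b-3p (−1.97). The miR-540-3p call was lost without any of 4 libraries (up to 0.0855).

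The miR-290-295 cluster, with no call at E7.5 alone, had 7 of 18 tested members with a more positive change at E7.5 than at E6.5. None had a more negative one, and the median interaction was 1.19. That exceeds the median change at E7.5 itself, 0.38, so a positive interaction here does not mean a larger change at E7.5. The 7 include miR-292a-5p and miR-292b-3p, which have identical values. The antisense names miR-203-3p and miR-203b-5p, with identical counts, were at a mean of 59.5 CPM in controls and 151 CPM in mutants at E6.5, whereas at E7.5 they were at 28.4, 325 and 261 CPM in controls and 20.4, 16.4, 51.1 and 8.12 CPM in mutants (interaction −4.30, adjusted p = 0.0286). Their call was lost in 11 of the settings tried (up to 0.123).

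The fourth comparison asked whether the change in the Epi differed from that in the Exe of E7.5 embryos of the same genotypes, by an interaction of mutant and tissue over 15 libraries. The change was greater in the Epi for 18 of 728 tested miRNAs (2.47%) and lower for 1 (0.137%), and by the study's thresholds for 88 (12.1%) and 24 (3.3%). Of 29 tested members of the X-linked cluster, 11 changed more in the Epi and none less, with a median of 2.09 beside 0.02 over all. The cluster's share was 0.752% to 1.86% in Exe controls and 3.15% to 4.28% in Exe mutants. Epi controls were below Exe controls, and Epi mutants, at 2.18% to 3.05%, were below Exe mutants too.

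For miR-470-5p the interaction was 2.25 (SE 0.468, adjusted p = 0.0200) and for miR-880-3p 2.47 (SE 0.508, adjusted p = 0.0200, and 0.0535 without E7.5 Epi control replicate 3). The Sfmbt2 cluster had 7 of 62 tested members with a greater change in the Epi, where it is a minor fraction, and none with a smaller one. In the Exe that cluster took 12.7% to 15.9% of control counts and 11.7% to 14.9% of mutant counts. The only miRNA with a lower change in the Epi was let-7a-5p (−1.54, SE 0.372, adjusted p = 0.0296), at a mean of 171 and 150 CPM in Epi controls and mutants and 219 and 527 CPM in the Exe. It was no longer called without the filter on low counts, with RLE scaling, with a mean of at least 10 counts or with other samples in the model. Leaving out 1 library also gave as few as 0 lower calls. Of 101 tested members of the Dlk1-Dio3 region none passed at an adjusted p under 0.05, while by the study's thresholds 8 had a lower and 1 a greater change in the Epi. Their median was −0.24, and 23 of the 101 estimates were above 0.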

How the data were processed

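Small RNA libraries were made from 100 pg of total RNA by CAS-seq, in which Cas9 removes adapter products before amplification, and no molecular identifiers are stated. Per the labels and the study's methods, the authors ran fastp 0.20.1 for trimming and Bowtie 1.2.1.1 for alignment, first to the GRCm38 genome and then to the mature miRNAs, and deposited raw counts for each mature miRNA. How reads that match several names were divided, and whether strand was used, is not given in the sources used here. The authors' own tests used DESeq2 1.30.1.

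Levels (CPM), shares (percent) and log2 fold changes were computed here from the deposited counts. Counts were filtered with filterByExpr (count minimum 10), scaled by TMM and tested with edgeR 4.0.16 (R 4.3.3) using glmQLFit and glmQLFTest, with Benjamini-Hochberg adjustment over all tested miRNAs. The E7.5 Epi model held 14 libraries of 4 groups, and the stage and tissue models 15 libraries each. The prior count for log2 CPM was 2. DESeq2 1.42.0, other scalings and filters, other samples in the model, a replicate block and each library left out were the alternatives. Standard errors come from the fitted spread between libraries, and the limit of 3 counts covers counting error only. Scripts were tested on simulated data.

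The libraries and lists were chosen with earlier results of these data known, so list counts and medians are descriptions. The miRNAs named are up to 12 higher and 12 lower calls by size of change with groups that do not overlap, the 10 most abundant, 1 to 4 members of each list, the 3 with the greatest difference each way in the other comparisons, and 7 that the study names. Other called miRNAs were added after their values were seen. The other 2 deposited files were not used here.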

Additional observations from a re-analysis of the deposited data

Results flagged for a closer look

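Of 93 values checked for a sample far from the others of its group, 3 stood apart, and chance gives about 1 in 20. All 3 concern Dnmt3a/3b-DKO replicate 1, the shallowest of the 7 libraries. miR-302b-3p was at 184232 CPM there and between 191871 and 192855 CPM in the other mutants. miR-92a-3p was at 131401 CPM and otherwise between 121746 and 123214 CPM. The miR-15/miR-16/miR-195 family took 0.413% of counts and otherwise 0.511% to 0.516%.

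The mutant effect differed between E7.5 and E6.5 Epi, by the interaction test, for these named miRNAs, given as log2 differences. It was lower at E7.5 for miR-702-3p (−4.33), miR-203-3p and miR-203b-5p (−4.30 each, identical counts), miR-1306-5p (−2.89), miR-5099 (−2.62), miR-540-3p (−2.04), miR-92b-3p (−1.97), miR-149-5p (−1.08), miR-541-5p (−0.98) and miR-92a-3p (−0.73). It was greater for miR-741-3p (1.86), miR-465c-5p (1.96), miR-743b-3p (2.05), miR-880-3p (2.47), miR-743a-3p (4.17), miR-881-5p (6.45), miR-883a-3p (7.39) and miR-669o-5p (8.35). The last 3 had a group at 3 counts or fewer, so that their values depend on the prior count. Only 2 of these 18, miR-5099 and miR-92b-3p, were called under every setting tried, and without control replicate 3 of E7.5 only 1 miRNA was called with a greater effect.

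Between E7.5 Epi and Exe, the effect was lower in the Epi for let-7a-5p (−1.54). It was greater for miR-669c-5p (1.16), miR-466n-3p (1.45), miR-669a-5p and miR-669p-5p (1.50 each), miR-465a-3p, miR-465b-3p and miR-465c-3p (1.94 each), miR-743b-3p (2.0), miR-741-3p (2.07), miR-465c-5p (2.11), miR-470-5p (2.25), miR-465a-5p (2.27), miR-880-3p (2.47) and miR-743a-3p (3.91). The values of miR-669o-5p (6.57), miR-669h-5p (7.52) and miR-881-5p (8.04) again depend on the prior count. Of these 18, 6 were called under every setting tried.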

How the results depend on the processing

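Against control, all 50 named calls kept their direction and 33 were called under all 15 settings. Of the named calls in the other comparisons, 10 of 22 against Dnmt1-KO, 2 of 18 for the stage and 6 of 18 for the tissue were called under every setting. The miRNAs that fell numbered 25 with DESeq2, 19 without the low-count filter and 27 in a model of the 2 groups alone, and those that rose 60 without the filter. Leaving out 1 library gave 30 to 43 that rose and 6 to 10 that fell, and 73 to 85 higher and 20 to 31 lower by the study's thresholds, with control replicate 3 giving 6 and 20, and Dnmt3a/3b-DKO replicate 2 giving 21 lower. Collapsing names with identical counts, added after seeing the data, gave 39 and 10.

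Against Dnmt1-KO, adjusted calls higher and lower were 24 and 36 with RLE, 13 and 47 with TMM without the Dlk1-Dio3 miRNAs and 21 and 38 with a mean of at least 10 counts; DESeq2 gave 44 lower. By the study's thresholds, those lower were 57, 54, 71, 55, 57 and 52 with DESeq2, RLE, that TMM, no filter, a mean of at least 10 counts and other samples in the model, and those higher 26, 39 and 44 with that TMM, a mean of at least 10 counts and other samples. Leaving out 1 library gave 22 to 38 higher and 15 to 32 lower adjusted, and 34 to 86 and 28 to 58 by the study's thresholds.

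For the stage difference, higher calls were 53 without the filter and 9 with other samples, and lower calls 35 with DESeq2 and 7 with other samples. By the study's thresholds 136 were higher without the filter and 27 lower with other samples. Leaving out 1 library gave 1 to 35 higher and 6 to 25 lower. For the tissue difference, higher calls were 51, 52, 32 and 30 with DESeq2, no filter, a mean of at least 10 counts and other samples, and lower calls 6, 3, 0 and 0, with 0 under RLE. By the study's thresholds 14, 9 and 11 were lower with DESeq2, a mean of at least 10 counts and other samples. Leaving out 1 library gave 8 to 48 higher and 0 to 2 lower, and 12 to 27 lower by the study's thresholds. The cause of these shifts was not tested.

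With the replicate number as a block, 36 rose and 11 fell against control (73 and 27 by the study's thresholds), 37 and 20 against Dnmt1-KO (76 and 27), 20 and 13 for the stage (75 and 33) and 21 and 2 for the tissue (74 and 15). The deviations of same-numbered control and mutant libraries correlated at −0.060, 0.041 and −0.040, so they share only a number and no pairing is claimed.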

Other observations

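The other abundant families and miRNAs of the Epi given here had no call at an adjusted p under 0.05 in edgeR's quasi-likelihood test. The miR-183 cluster, known from sensory and pluripotent cells, took 2.80% to 3.05% of counts in the controls and 3.35% to 3.40% in the mutants. The miR-106b cluster, which shares seeds with miR-17~miR-92, took 1.22% to 1.24% against 1.01% to 1.19%, and its X-linked relative around miR-106a took 1.36% to 1.81% against 1.74% to 2.14%, ranges that overlapped. miR-200c-3p, known for keeping epithelial cells epithelial, was at 5131, 5249 and 5185 CPM in the controls and 4394, 4396, 3966 and 3761 CPM in the mutants (log2 fold change −0.42, adjusted p = 0.0534). miR-375-3p, an endoderm and endocrine miRNA, was at 2676, 3260.3 and 3577 CPM against 3448, 2741, 3943 and 3601 CPM (0.03, adjusted p = 0.987).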
